A study of Mus musculus with 4 samples.

Results

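The calcium/calmodulin-dependent protein kinases (CaMK) and the protein kinases D (PKD) that phosphorylate HDAC4 and its relatives were described at the RNA level in satellite cells with and without HDAC4. The 10 genes were chosen by name: Camk2a, Camk2b, Camk2d and Camk2g for CaMKII, Camk1, Camk1d and Camk4 for CaMKI and CaMKIV, and Prkd1, Prkd2 and Prkd3 for PKD. All 10 were found in each of the 4 deposited tables, among 43437 gene entries, and 8 of them entered the test, which covered 11821 genes at a mean of 1 FPKM or more (fragments per kilobase of transcript, scaled to the mapped reads of each library).

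Satellite cells, which regenerate skeletal muscle, came from C57BL/6 mice aged 4 weeks and were grown for 24 h after sorting. Both groups carried HDAC4fl/fl and Pax7CE/+ Cre, a tamoxifen (TMX)-inducible recombinase placed in the Pax7 gene, so that all mice had a single working Pax7 allele. Control mice received vehicle and HDAC4 KO mice received TMX, so that the drug and the loss of HDAC4 cannot be told apart in these libraries. Each group held 2 RNA-sequencing libraries, called control 3, control 4, HDAC4 KO 3 and HDAC4 KO 4, and as the labels do not say that they came from separate animals, the tests may rest on technical spread alone.

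HDAC4 is a class IIa histone deacetylase that binds MEF2 transcription factors and keeps their target genes silent. When calcium rises, CaMK enzymes phosphorylate conserved serines of class IIa deacetylases, 14-3-3 proteins then bind and the deacetylase leaves the nucleus, which frees MEF2. PKD enzymes act on the same sites downstream of protein kinase C and diacylglycerol, and CaMKII docks on HDAC4 in particular. These are changes in activity and place of the proteins, which RNA levels do not measure.

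Most deposited values of 1 or more had lost their decimal point. The ratios between libraries could be restored for all 10 kinases, and the level itself for Camk2a, Camk2b, Camk2g, Camk1d, Camk4 and Prkd1. For Camk2d, Camk1, Prkd2, Prkd3 and Hdac4 a power of 10 common to the 4 libraries was not settled, and their values are given as percent of the control mean, which no power of 10 alters. The depth was estimated from the width of the deposited confidence bounds and stood, relative to HDAC4 KO 4, at 1.62 in control 3, 1.12 in control 4 and 1.02 in HDAC4 KO 3. The effective reads given below are the number of reads that would give a gene's bounds by counting error alone.

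Hdac4 (ENSMUSG00000026313, chromosome 1, 91928779 to 92180341, GRCm38) checked the labels. It stood at 92.6% and 107% of the control mean in control 3 and control 4 and at 29.0% and 43.3% in HDAC4 KO 3 and HDAC4 KO 4. Both HDAC4 KO libraries were below both controls. The difference was taken as log2(FPKM + 1) in HDAC4 KO minus control. It was -1.44 at 50.4 FPKM in control 3, a level that the digits allow. At the 5.04 FPKM used here it was -1.13 ± 0.19 (SE) in limma. The unadjusted p of limma was 0.00393, its p after Benjamini-Hochberg adjustment over all genes was 0.253, and the adjusted p ranged from 0.0571 to 0.715 over the 14 alternatives. The values cover the whole gene, and RNA outside the deleted part can remain.

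Satellite cell and myoblast markers were present in all 4 libraries. Of the 8 tested, 2 lay above the controls without overlap and 3 below, beside 30.7% and 17.7% of all genes tested. Their median difference was -0.03 on the log2 scale. Myod1, a transcription factor of committed myogenic cells, was measured at 633 and 833 FPKM in the controls and at 563 and 530 FPKM with HDAC4 deleted, and Itga7, the integrin used in the sort, at 127, 149, 124 and 146 FPKM. Markers of mature muscle fibres were highest in control 3 for 7 of 7 restored markers, 3 of them under 1 FPKM in every library. The 5 of settled level summed to 1396 FPKM there and to 118 FPKM in the other control. With HDAC4 deleted they summed to 78.3 and 168 FPKM. Nearly all of this sum was Mylpf, whose values are given below. Glial and Schwann cell markers were highest in HDAC4 KO 3 for 6 of 6, and their summed level over the 5 of settled level was 6.48 and 3.89 FPKM in the controls against 14.9 and 12.1 FPKM with HDAC4 deleted. None of the glial markers was listed at 0. Smooth muscle and pericyte markers had the highest median difference of the marker lists, 1.31 on the log2 scale, and the 3 of 6 that were tested lay above the controls without overlap, as did 5 of 5 tested glial markers and 30.7% of all genes tested. Limma called no marker of either list at an adjusted p under 0.05. The summed level of the 3 smooth muscle and pericyte markers of settled level overlapped between groups, at 2.10 and 0.811 FPKM in the controls and at 1.86 and 2.05 FPKM with HDAC4 deleted. Among the tested markers Acta2, smooth muscle actin, stood at 117% and 82.6% of the control mean in the controls and at 217% and 290.1% with HDAC4 deleted, and Cspg4, the pericyte proteoglycan NG2, at 98.9% and 101% and at 199% and 211%. Of the tested endothelial markers 2 of 4 lay above the controls without overlap, as did 2 of 3 fibro-adipogenic markers. Control 3 was the highest library for 4 of 6 restored endothelial markers and for 2 of 5 fibro-adipogenic markers. HDAC4 KO 3 was the highest for 2 of 6 and 3 of 5 of them. The summed level of 5 settled endothelial markers overlapped between groups, at 5.14 and 2.46 FPKM against 3.82 and 4.76 FPKM with HDAC4 deleted. For 3 settled fibro-adipogenic markers the sum was 11.03 and 4.24 FPKM in the controls against 11.77 and 11.64 FPKM. The summed level of 5 blood cell markers was 32.6 FPKM in control 3 and 3.84, 4.24 and 5.64 FPKM in the other libraries. Of the 4 tested blood cell markers, 2 lay above the controls without overlap and none below. Their differences ran from -1.85 to 1.01 on the log2 scale. The part of these markers in the kinase differences was not tested. In bulk RNA, fewer cells of a type and less RNA per cell cannot be told apart.

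Of the 8 kinases tested, limma called none at an adjusted p under 0.05, where it called 0.0169% of all genes tested higher and 0.0423% lower. Tested among protein-coding genes alone, it also called none of the 8, beside 0.519% of those genes higher and 0.049% lower. At an unadjusted p under 0.05, 1 of the 8 (Prkd2) was higher and none lower, beside 10.2% of all genes higher and 3.5% lower. For 5 of the 8 (Camk2a, Camk2d, Camk1, Camk1d and Prkd2), both HDAC4 KO libraries lay above both controls, and for none below, beside 30.7% and 17.7% of all genes. The same 5 were those with a positive difference, beside 57.4% of all genes. The median difference of the 8 was 0.25 on the log2 scale, beside 0.04 over all genes tested. The 5 that lay above the controls came from all 3 kinase families, but not every gene of a family rose. Camk2g of CaMKII, and Prkd1 and Prkd3 of PKD, had negative differences and overlapped between groups.

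**Figure D1:**
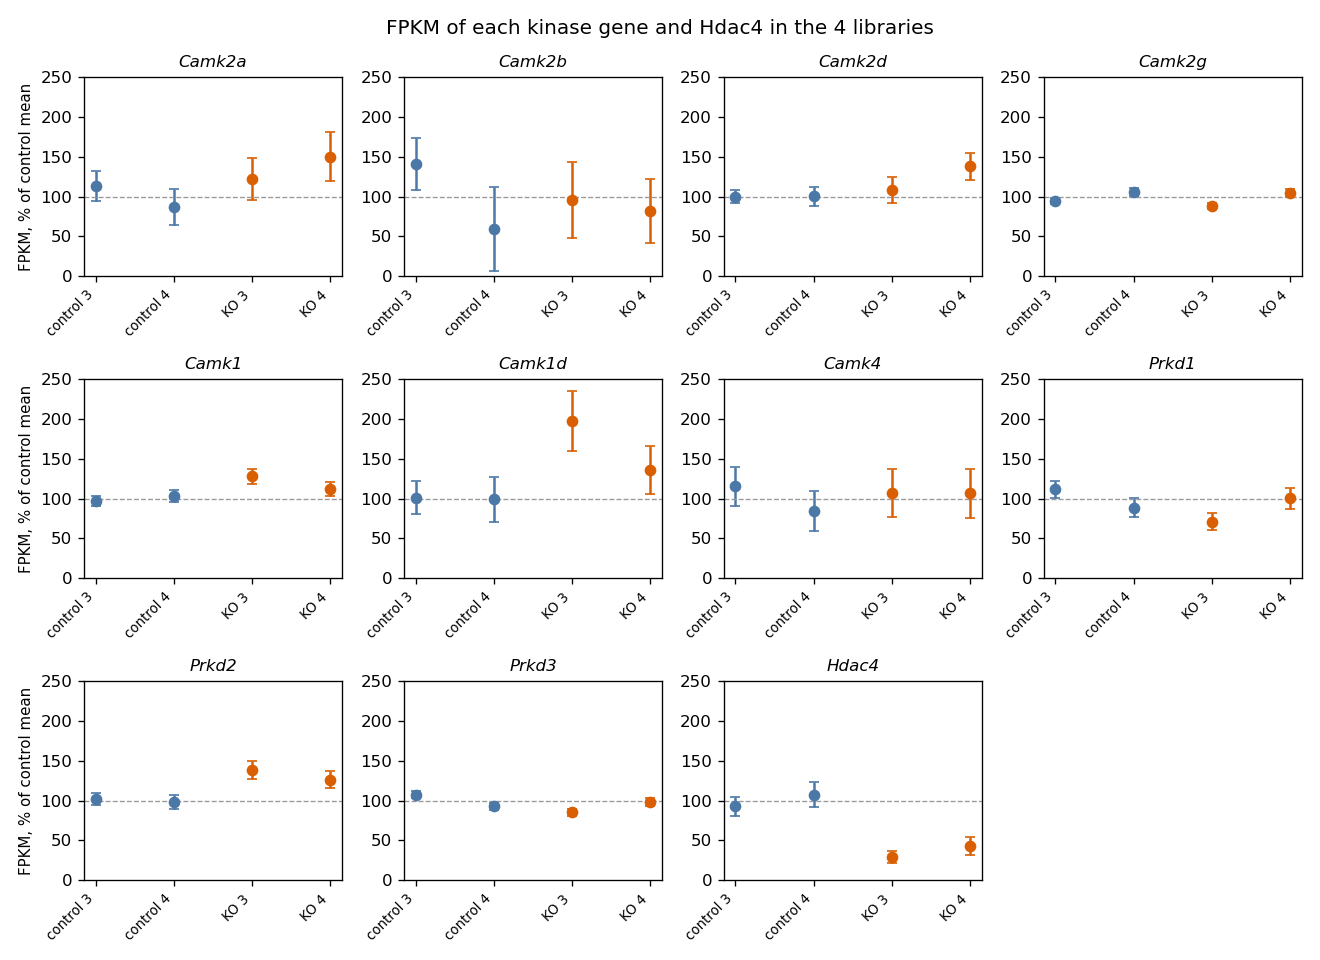
Values of the 10 kinase genes and Hdac4 in each library, in percent of the mean of the 2 controls (dashed line at 100); blue points are control 3 and control 4, orange points HDAC4 KO 3 and HDAC4 KO 4, and bars are the deposited confidence bounds. Camk1d in HDAC4 KO 3 reached 197%, the highest kinase value, and Hdac4 stood at 29.0% and 43.3% in HDAC4 KO.

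Regulatory windows are shown for Prkd2, the kinase with the smallest p, and Camk1d, the tested kinase with the widest range over libraries on log2(FPKM + 1). Each runs from 250 bases before to 50 after a RefSeq gene start (GRCm38.p6). Both genes had 2 such windows, and the first of each is shown. The Camk1d window lies outside the deposited span of that gene, 5293457 to 5714515. Capitals mark the letters GGGCGG, a GC box of the kind that Sp1 binds, or their reverse complement, searched on both strands.
Prkd2, chr7:16842652-16842951, plus strand: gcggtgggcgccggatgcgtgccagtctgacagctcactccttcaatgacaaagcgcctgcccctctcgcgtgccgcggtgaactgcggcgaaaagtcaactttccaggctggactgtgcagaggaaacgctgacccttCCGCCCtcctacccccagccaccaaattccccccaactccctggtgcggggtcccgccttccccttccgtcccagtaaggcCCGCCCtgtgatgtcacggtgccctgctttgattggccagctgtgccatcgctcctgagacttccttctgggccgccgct
Camk1d, chr2:5714713-5715012, minus strand: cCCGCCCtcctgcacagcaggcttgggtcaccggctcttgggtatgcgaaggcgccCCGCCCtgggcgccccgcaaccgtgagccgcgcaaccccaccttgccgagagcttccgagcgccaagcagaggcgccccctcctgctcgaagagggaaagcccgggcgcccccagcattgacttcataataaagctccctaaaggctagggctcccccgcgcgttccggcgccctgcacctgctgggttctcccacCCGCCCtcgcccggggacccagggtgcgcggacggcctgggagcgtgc
The Prkd2 window shown held 2 matches to GGGCGG and was 64.3% G and C, and the Camk1d window shown held 3 and was 71.3% G and C. Windows were found for 7 of the 10 kinases, 10 windows in all, as some genes have more than 1. GGGCGG was in 8 of the 10 windows and in 6 of the 7 genes, beside 35.7% of 32851 windows of all genes. The windows of all genes were not matched to the kinases in G and C content or expression. The MEF2 motif, searched on both strands, was in none of the 10 kinase windows, beside 3.19% of all windows. A match to these letters is not a bound site.

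CaMKII is built from subunits of 4 genes that assemble into large holoenzymes. Camk2g, with Camk2d one of the 2 broadly expressed genes, was the most abundant kinase of settled level. Camk2g (ENSMUSG00000021820, chromosome 14, 20734875 to 20794088) was measured at 17.1 and 19.0 FPKM in control 3 and control 4 and at 15.9 and 18.8 FPKM in HDAC4 KO 3 and HDAC4 KO 4. The groups overlapped, and the lowest and highest library differed 1.20-fold. The difference was -0.06 ± 0.12 (SE) on the log2 scale, with a 95% interval of -0.40 to 0.29 and an adjusted p of 0.850 in limma. Its sign changed to 0.06 without HDAC4 KO 3 and to 0.02 without control 4.

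Camk2d (ENSMUSG00000053819, chromosome 3, 126596302 to 126844913), the other broadly expressed subunit gene, stood at 99.9% and 100.1% of the control mean in the controls and at 108% and 138% in HDAC4 KO 3 and HDAC4 KO 4. The controls were nearly equal, while the HDAC4 KO libraries differed from each other by more than HDAC4 KO 3 differed from the controls. The level was 2.38 or 23.8 FPKM in control 3, and at the higher of these the difference was 0.28 ± 0.14 (SE, log2 scale), with an adjusted p of 0.461 in limma. At 2.38 FPKM in control 3 it was 0.21, and at 23.8 FPKM it was 0.11 without HDAC4 KO 4 and 0.45 without HDAC4 KO 3. Effective reads were 544 and 256 in the controls and 181 and 248 with HDAC4 deleted, so that the bounds of HDAC4 KO 3, from 92.3% to 125%, reached below the control mean.

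Camk2a (ENSMUSG00000024617, chromosome 18, 60925618 to 60988152), the subunit best known from forebrain neurons, was measured at 1.32 and 1.01 FPKM in the controls and at 1.42 and 1.75 FPKM in HDAC4 KO 3 and HDAC4 KO 4. Both HDAC4 KO libraries were above both controls, but HDAC4 KO 3 by only 1.08-fold over control 3. The group means were 1.16 ± 0.22 and 1.59 ± 0.23 FPKM (SD, n = 2 each). The difference was 0.26 ± 0.20 (SE, log2 scale) with an adjusted p of 0.576 in limma. It was 0.16 both without control 4 and without HDAC4 KO 4.

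Camk2b (ENSMUSG00000057897, chromosome 11, 5969644 to 6066362), a subunit known from brain and mature muscle, was measured at 1.02 and 0.431 FPKM in the controls and at 0.692 and 0.593 FPKM with HDAC4 deleted. Control 3 was the highest and control 4 the lowest, so that the HDAC4 KO libraries lay between the controls. It stayed under the mean of 1 FPKM needed for the test, and without a filter on low values its difference was -0.05 ± 0.21 (SE, log2 scale), adjusted p = 0.938 in limma. Effective reads were 73.6 in control 3 and 5.04 in control 4, where the bounds ran from 0.0471 to 0.815 FPKM. Control 3 was also the library with the highest mature fibre markers, among them Mylpf, a fast fibre myosin light chain, at 1394 FPKM against 117 FPKM in control 4 and 77.9 and 168 FPKM with HDAC4 deleted. The part of these markers in the Camk2b level was not tested.

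**Figure D2:**
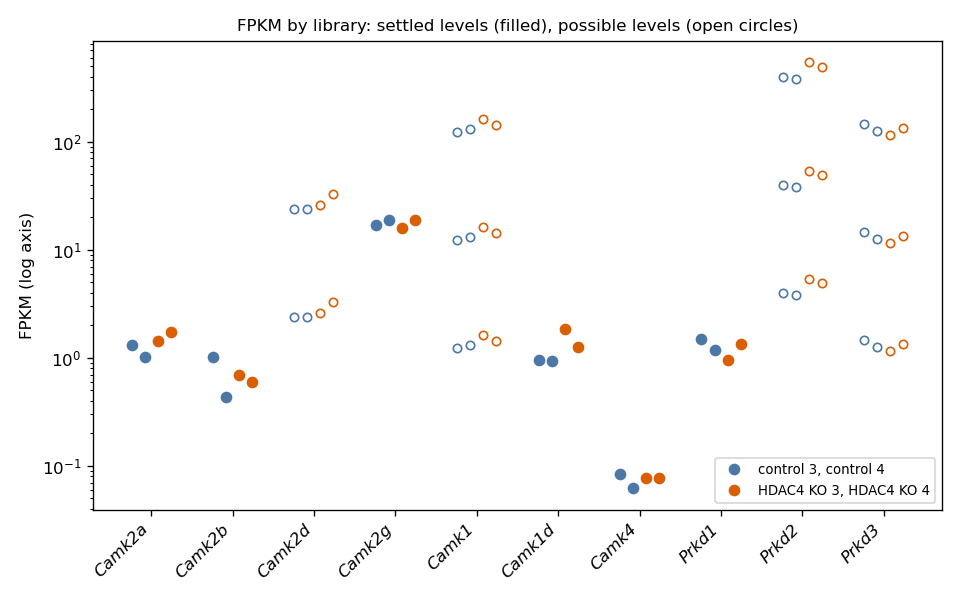
FPKM of the 10 kinases in each library on a log axis, with blue for control and orange for HDAC4 KO; filled points have a settled level, and open circles show each level that the printed digits allow. Camk2g at 15.9 to 19.0 FPKM and Camk4 below 0.1 FPKM are the highest and lowest of the settled levels.

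CaMKI and CaMKIV are monomeric and are switched on by CaM kinase kinase. Camk1 (ENSMUSG00000030272, chromosome 6, 113334124 to 113343984), the broadly expressed CaMKI gene, stood at 96.9% and 103% of the control mean in the controls and at 128% and 112% in HDAC4 KO 3 and HDAC4 KO 4. The groups did not overlap, and the gap between the highest control and the lowest HDAC4 KO library was 1.09-fold. The difference was 0.24 ± 0.11 (SE, log2 scale), with a 95% interval of -0.05 to 0.54 and an adjusted p of 0.420 in limma, at a level of 12.3 FPKM in control 3. At the 123 FPKM that the digits also allow it was 0.26, with all open levels 10 times lower 0.15, and without HDAC4 KO 3 also 0.15. At a reading of 1.23 FPKM in control 3, the reads expected from transcript length and depth would be 0.228 of the effective reads. That is below all of 135 reference genes of known level, whose lowest ratio was 1.91. Camk4, whose level is settled, also had more effective reads than its transcript length and depth would give, so this comparison is not decisive.

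Camk1d (ENSMUSG00000039145, chromosome 2, 5293457 to 5714515), the CaMKI delta gene, known as CKLiK from granulocytes, showed the largest ratio between groups among the kinases, 1.67-fold on the means, with all libraries. HDAC4 KO 3 alone stood at 197% of the control mean and HDAC4 KO 4 at 136%, where Camk2a, at 150.3%, was higher, so that the rank rests on HDAC4 KO 3. It was measured at 0.949 and 0.927 FPKM in the controls and at 1.85 and 1.27 FPKM in HDAC4 KO 3 and HDAC4 KO 4. The controls were close to each other, both HDAC4 KO libraries were above them, and the lowest HDAC4 KO library was 1.34-fold above the highest control. The bounds of HDAC4 KO 4, from 0.989 to 1.56 FPKM, overlapped those of control 3, from 0.759 to 1.14 FPKM. The difference was 0.39 ± 0.21 (SE, log2 scale), with a 95% interval of -0.20 to 0.98 and an adjusted p of 0.485 in limma. At this low level the added 1 FPKM shrinks a difference, and with a pseudocount of 0.1 it was 0.66 with an adjusted p of 0.493. Without HDAC4 KO 3 the difference on log2(FPKM + 1) was 0.23. Effective reads were 99.6 and 49.7 in the controls and 111 and 80.4 with HDAC4 deleted. HDAC4 KO 3, where Camk1d was highest, was also highest for all 6 glial markers, and the part of those cells in the Camk1d level was not tested.

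Camk4 (ENSMUSG00000038128, chromosome 18, 32939041 to 33195767), a mainly nuclear kinase of neurons and lymphocytes, was the least abundant of the kinases of settled level. It was measured at 0.0845 and 0.0620 FPKM in the controls and at 0.0779 and 0.0780 FPKM in HDAC4 KO 3 and HDAC4 KO 4. The HDAC4 KO libraries lay between the controls. Effective reads were 46.1 to 88.4 per library, and without a filter the difference was 0.01 ± 0.02 (SE, log2 scale).

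PKD enzymes carry diacylglycerol-binding domains and are activated by protein kinase C. Prkd2 (ENSMUSG00000041187, chromosome 7, 16842902 to 16870461), the PKD2 gene, gave the smallest p of the kinases. It stood at 102% and 98.4% of the control mean in the controls and at 138% and 126% in HDAC4 KO 3 and HDAC4 KO 4. The libraries of each group lay close together, and the lowest HDAC4 KO library was 1.24-fold above the highest control. The bounds of both HDAC4 KO libraries, from 127% to 150% and from 116% to 137%, lay above those of both controls, which reached at most 109%.

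The difference of Prkd2 was 0.39 ± 0.09 (SE, log2 scale), with a 95% interval of 0.14 to 0.65 in limma. The unadjusted p of limma was 0.0125 and the adjusted p 0.283. A smaller p was found for 4.4% of all genes tested, and a larger difference for 11.1%. Over 15 alternatives the difference ranged from 0.33 to 0.46 and the adjusted p from 0.154 to 0.715. The level in control 3 was taken as 39.7 FPKM, and with all open levels 10 times lower the difference was 0.33. The mean in HDAC4 KO was 1.32-fold that of control.

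Prkd1 (ENSMUSG00000002688, chromosome 12, 50341231 to 50649223), the PKD1 gene whose product drives class IIa deacetylase export in heart and slow muscle, was measured at 1.49 and 1.18 FPKM in the controls and at 0.948 and 1.34 FPKM in HDAC4 KO 3 and HDAC4 KO 4. The groups overlapped, as HDAC4 KO 4 lay between the controls. The difference was -0.13 ± 0.21 (SE, log2 scale), adjusted p = 0.801 in limma, and it was 0.0042 without HDAC4 KO 3, -0.0314 without control 3, -0.22 without control 4 and -0.26 without HDAC4 KO 4. Effective reads were 420 and 227 in the controls and 160 and 217 with HDAC4 deleted.

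Prkd3 (ENSMUSG00000024070, chromosome 17, 78949405 to 79020816), the PKD3 gene, stood at 107% and 93.0% of the control mean in the controls and at 85.0% and 98.1% in HDAC4 KO 3 and HDAC4 KO 4. The groups overlapped. The difference was -0.12 ± 0.13 (SE, log2 scale) with a 95% interval of -0.47 to 0.23 and an adjusted p of 0.683 in limma, and it was -0.0223 without HDAC4 KO 3, -0.0243 without control 3, -0.21 without control 4 and -0.21 without HDAC4 KO 4. With 1517 to 2317 effective reads per library, its bounds were within 5.1% of the estimate in every library. Prkd1 and Prkd3 were both lowest in HDAC4 KO 3, where Prkd2 was highest.

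In the controls the settled means ran from Camk2g at 18.0 FPKM through Prkd1 at 1.33, Camk2a at 1.16, Camk1d at 0.938 and Camk2b at 0.725 to Camk4 at 0.0733 FPKM. In HDAC4 KO they ran from Camk2g at 17.3 FPKM through Camk2a at 1.59, Camk1d at 1.56, Prkd1 at 1.14 and Camk2b at 0.642 to Camk4 at 0.0780 FPKM. Prkd1, Camk2a, Camk1d and Camk2b overlapped with a neighbour in at least 1 group and their order is not settled, while Camk2g and Camk4 stood apart from them in every library.

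**Figure D3:**
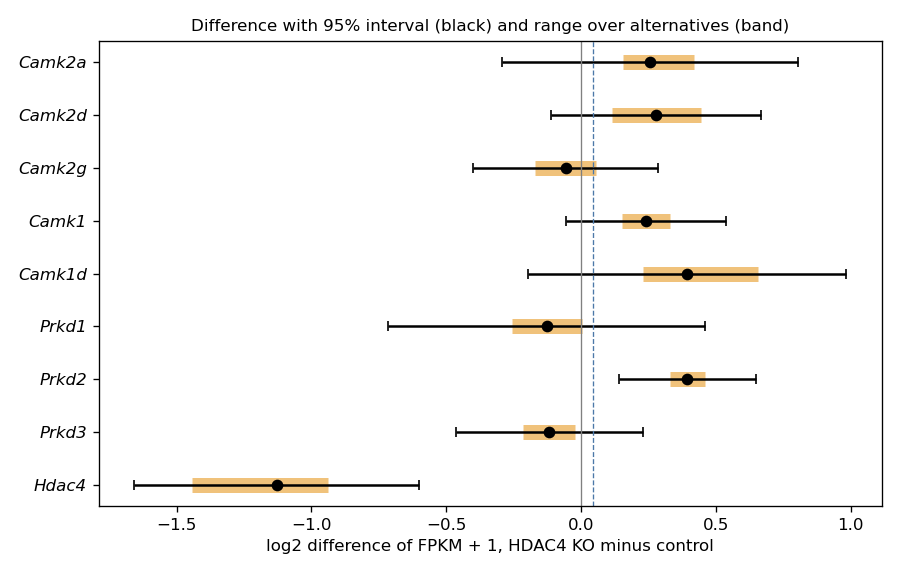
Difference of log2(FPKM + 1), HDAC4 KO minus control, for the 8 tested kinases and Hdac4, with the 95% interval from limma (black) and the range over the processing alternatives (band); the dashed line is the median of all genes tested, 0.04. The intervals of Prkd2, from 0.14 to 0.65, and Hdac4, from -1.66 to -0.60, lie to one side of 0.

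Camk1d and Prkd2 were the 2 tested kinases with the widest range on log2(FPKM + 1). On FPKM itself the highest library was 1.41-fold the lowest for Prkd2, below Camk2a at 1.73-fold and Prkd1 at 1.57-fold. The genes most like each were found by the distance between library profiles on log2(FPKM + 1), centred on their means over 4 libraries. For Camk1d they were Dtnbp1, a subunit of a complex that forms lysosome-related organelles, Nudc, a partner of dynein, and Snrpd2, a core protein of spliceosomal particles, at distances of 0.0391 to 0.0484. For Prkd2 they were Rhbdf2, which helps to bring the protease ADAM17 to the cell surface, Stx18, a syntaxin of the endoplasmic reticulum, and Nefm, a neurofilament chain, at distances of 0.0186 to 0.0291. The added 1 FPKM shrinks differences at low levels, so near profiles can differ in percent. In HDAC4 KO 3 and HDAC4 KO 4, Camk1d stood at 197% and 136% of the control mean. Dtnbp1 stood at 146% and 119%, Nudc at 144% and 119% and Snrpd2 at 143% and 113%. Prkd2 stood at 138% and 126%, Rhbdf2 at 148% and 132%, Stx18 at 138% and 126% and Nefm at 166% and 149%. The levels of Prkd2, Rhbdf2 and Stx18 are open, so distances to Prkd2 rest on the levels set. Of 11820 genes compared, 50 lay within a distance of 0.1 of Camk1d and 115 of Prkd2.

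The other genes around the kinases were read from 9 lists, of which 91 of 92 genes were restored (all but Hdac7) and 69 tested. Limma called none of them at an adjusted p under 0.05. At an unadjusted p under 0.05, 9 of the 69 were higher and 2 lower, among them Hdac4, beside 10.2% and 3.5% of all genes tested. The median difference of the 69 was 0.07 on the log2 scale, beside 0.04 over all genes tested. List genes given below as percent of the control mean, and Mef2a and Mef2d, had an open level. Their differences are at the level set from transcript length. With all open levels 10 times higher, Sfn moved from 0.84 to 1.15 and Dyrk1b from 0.58 to 0.68. With all 10 times lower, Prkcb moved from 0.51 to 0.42.

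**Figure D4:**
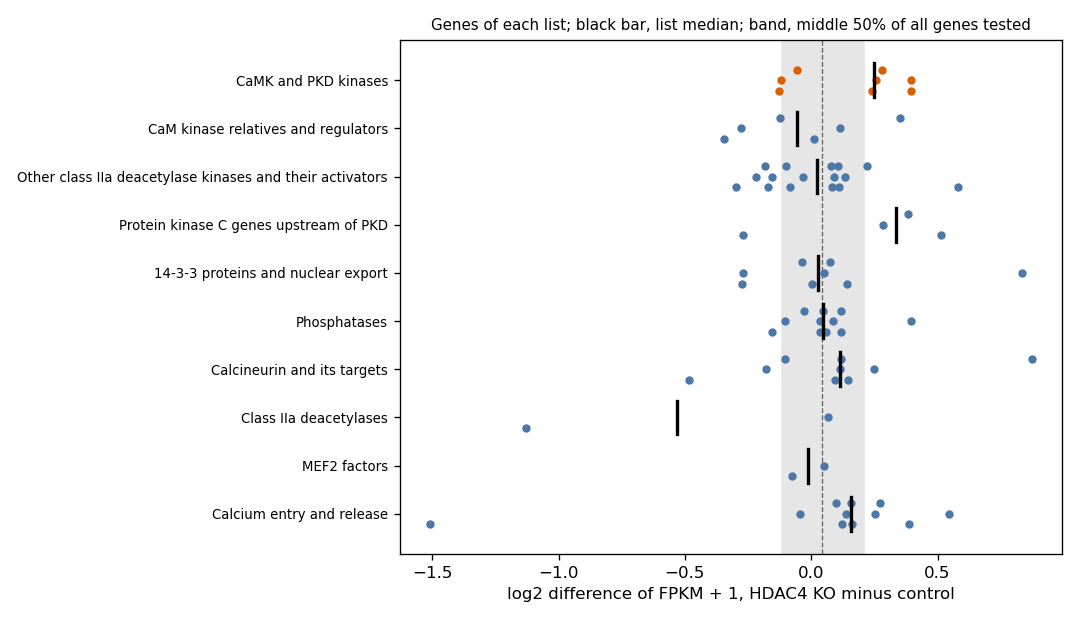
Difference of log2(FPKM + 1), HDAC4 KO minus control, for each tested gene of the kinases (orange) and of the 9 lists (blue); black bars are list medians and the grey band holds the middle 50% of all genes tested, from -0.12 to 0.21. The kinase median of 0.25 and the protein kinase C median of 0.33 lie right of the band, and the deacetylase median, over Hdac4 and Hdac5 alone, lies left of it.

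Among CaM kinase relatives and regulators, 6 of 12 genes were tested, with a median difference of -0.06. Camkk2, the CaM kinase kinase that activates CaMKI and CaMKIV, stood at 98.1% and 102% of the control mean in the controls and at 77.8% and 78.7% in HDAC4 KO (difference -0.35 ± 0.08, SE, adjusted p = 0.282 in limma). Its groups did not overlap.

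Of 9 protein kinase C genes, 4 were tested, 2 of them higher at an unadjusted p under 0.05, beside 10.2% of all genes, with a median difference of 0.33. Prkcd, an isoform that needs diacylglycerol but not calcium and phosphorylates PKD, stood at 98.1% and 102% of the control mean in the controls and at 132% and 130% in HDAC4 KO (0.38 ± 0.08, SE, adjusted p = 0.277 in limma). Prkcb, a calcium-dependent isoform, stood at 111% and 89.0% in the controls and at 138% and 148% in HDAC4 KO (0.51 ± 0.14, SE, adjusted p = 0.302). Prkci, an atypical isoform named here after its values were seen, lay below the controls without overlap, at 99.5% and 100.5% in the controls and at 74.7% and 90.2% in HDAC4 KO (-0.27 ± 0.12, SE, adjusted p = 0.423).

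Of the other deacetylase kinases and their activators, 16 of 17 were tested, 8 higher and 8 lower in sign, with a median of 0.02. Dyrk1b, a kinase that acts in muscle differentiation, stood at 90.1% and 110% of the control mean in the controls and at 156% and 167% in HDAC4 KO (0.58 ± 0.14, SE, adjusted p = 0.282 in limma). The ERK gene Mapk3 stood at 98.5% and 102% in the controls and at 88.7% and 74.0% in HDAC4 KO.

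Of the 14-3-3 proteins, which hold phosphorylated HDAC4 in the cytoplasm, and the exportin Xpo1, 8 of 8 were tested, with a median of 0.03. Ywhae was measured at 476 and 452 FPKM in the controls and at 507 and 517 FPKM in HDAC4 KO, and Ywhaz stood at 103% and 97.2% of the control mean in the controls and at 77.9% and 88.3% in HDAC4 KO. Sfn, the 14-3-3 sigma gene of epithelia, stood at 102% and 97.9% in the controls and at 267% and 196% in HDAC4 KO (0.84 ± 0.19, SE, adjusted p = 0.282 in limma).

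Phosphatases that act on class IIa deacetylases had 11 of 11 genes tested, none past an unadjusted p of 0.05, and a median of 0.05. Ppp1r12a, a myosin phosphatase subunit, was measured at 11.4 and 8.55 FPKM in the controls and at 12.7 and 13.9 FPKM in HDAC4 KO. Ppp2r5c, a regulatory subunit of protein phosphatase 2A, stood at 104% and 96.5% of the control mean in the controls and at 109% and 109% in HDAC4 KO, and its scaffold subunit Ppp2r1a overlapped between groups at 196, 217, 220 and 210.0 FPKM.

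Among calcineurin genes and their targets, 9 of 11 were tested, with a median of 0.11. Rcan1 and Rcan2, which encode regulators of calcineurin, stood at 121% and 117% and at 231% and 151% of the control mean in HDAC4 KO 3 and HDAC4 KO 4, without overlap with the controls. Of the genes for calcium entry and release, 11 of 16 were tested, with a median of 0.16. Orai2, a pore subunit of store-operated calcium channels, was measured at 10.8 and 13.3 FPKM in the controls and at 17.3 and 18.5 FPKM in HDAC4 KO (0.54 ± 0.13, SE, adjusted p = 0.289 in limma). Itpr3, an inositol trisphosphate receptor, stood at 139% and 134% of the control mean in HDAC4 KO, while Atp2a2, the calcium pump of the endoplasmic reticulum, overlapped between groups at 167, 164, 153 and 169 FPKM.

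Of the kinases' downstream partners, Hdac5 stood at 84.2% and 116% of the control mean in the controls and at 108% and 99.8% in HDAC4 KO. Mef2a and Mef2d, the only MEF2 genes that reached the mean needed for the test, also overlapped between groups, with differences of 0.05 ± 0.18 and -0.08 ± 0.20 (SE, log2 scale).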

How the data were processed

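RNA-seq libraries of satellite cells, 2 control and 2 HDAC4 KO, were single-end, stranded and made from mRNA. Per the submitters' processing notes, CASAVA 1.8.2, cutadapt for trimming, TopHat for alignment to GRCm38, Cufflinks and Cuffdiff were used. The annotation release is not given in the sources used here. For each library the authors deposited the FPKM of every gene and its confidence bounds. A further deposited table holds a pooled FPKM per group, and the fold changes, test statistics, p-values and q-values of the authors' own comparison were not used.

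Between 11652 and 11900 of 43496 entries per library had lost the decimal point of their FPKM. Points were put back where the estimate lay midway between its bounds (tolerance 4e-05) and where FPKM times depth, divided by the effective reads, was most alike in the 4 libraries. Effective reads are the square of 4 times the estimate over the width of its bounds. A set of points had to beat the next by 0.4 on the log10 scale. Of 43437 gene entries, 25085 were kept, 17712 were listed at 0 throughout, 466 were too close to call, Hdac7 among them, and 40 were listed more than once. Among 1312 genes whose points all show, moving 1 group by a power of 10 was recognised for 1308, and the other 4 would have been left out. The restored group means were compared with the digits of the authors' pooled FPKM. Their median offset on the log10 scale was 0.0112 in HDAC4 KO and 0.0217 in control. With each group's offset taken off, 99.89% of genes in both groups matched within 0.05. The level of 8228 tested genes was not visible and was set from transcript length (GENCODE M21), and for genes of known level this found 1136 of 1351 levels (84.1%).

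Genes at a mean of 1 FPKM or more were compared on log2(FPKM + 1) in R 4.3.3, using limma 3.58.1 and a prior that follows the mean, two-sided, at a Benjamini-Hochberg adjusted p under 0.05. The restoration and the test were checked on simulated data. An exact permutation test of 2 against 2 libraries cannot go below p = 0.333 and was not used. Effective reads and bounds cover the counting and assignment error of each library, not the spread between animals. Named genes were the 10 kinases and Hdac4. From each of 9 lists they were every gene called, and otherwise the 2 with the smallest p and the 1 with the highest mean. The 3 genes most like each of the 2 kinases of widest range on log2(FPKM + 1) were also named. Some genes that this rule names are not reported here. The kinases and the lists were chosen with earlier results of these data known. Alternatives covered scaling, pseudocount, filter, gene type, prior, replicate block and leaving out each library. Setting the open levels a power of 10 lower or higher was added after seeing the data. Promoter sequences are from RefSeq. Same-numbered libraries did not deviate together (r = -0.07 across 11821 genes), so the numbers were not taken as pairs.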

Additional observations from a re-analysis of the deposited data

How the results depend on the processing

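Limma called 7 genes in all, 2 higher and 5 lower, none of them protein-coding and each listed at 0 throughout 1 group. At an unadjusted p under 0.05, 1206 were higher and 414 lower, against 925 and 652 with median-ratio scaling and 972 and 625 with quantile normalization. The count of calls was 13 with median-ratio scaling (2 higher, 11 lower), 21 with a pseudocount of 0.1, 0 without a filter on low values (1991 higher and 700 lower at an unadjusted p under 0.05), 58 among protein-coding genes alone (53 higher, 5 lower), 20 without a trend in the prior and 40 with a robust prior. With all open levels 1 power of 10 lower it was 1, and with all 1 power of 10 higher 25, both chosen after seeing the data. Leaving out 1 library gave counts from 0 to 122, namely 110 without control 3, 122 without control 4 and 0 without HDAC4 KO 3 or HDAC4 KO 4, where the lone library of a group is assumed to vary like the others. The cause of these moves was not tested. Limma called none of the kinases or list genes under any of these 15 alternatives. It called 4 cell type markers among protein-coding genes alone and 2 with a robust prior.

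Camk2a, Camk2d, Camk1, Camk1d and Prkd2 kept a positive difference, and Prkd3 and Hdac4 a negative one, under every alternative run. The signs of 13 of 445 single-gene values turned. With 1 library left out, Camk2g ranged from -0.170 to 0.0563 (0.0174 without control 4), Prkd1 from -0.258 to 0.0042, Mef2a from -0.135 to 0.236, Mef2d from -0.254 to 0.0985, Ppp2r1a from -0.0138 to 0.129, Hdac5 from -0.155 to 0.288 and Atp2a2 from -0.118 to 0.0286. Mef2a was -0.003 with median-ratio scaling and -0.0022 with quantile normalization, and Ppp2r1a was -0.0313 with quantile normalization.

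With the replicate block the count of calls was 2, and none of the kinases was called. The numbers 3 and 4 were not taken as pairs, so calls lost there do not measure a weaker effect. The share of each gene in its kinase family was not computed, as every family held a gene of open level. Camk2b, Camk4, Camk1d and Camk2a are limited by few effective reads, as few as 5.04, 46.1, 49.7 and 58.1 in a library. Counting and assignment error were not separated there. With 2 libraries per group, every kinase is limited.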
